A study of Mus musculus with 28 samples.

Results

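The samples described here are the 4 arrays of an embryonic stem (ES) cell line that carries a doxycycline-controlled Tbx3 transgene, 2 with the transgene on and 2 with it off, out of 28 arrays that cover 7 such lines. They were chosen by their labels alone: clone 15 of the line tetTbx3, made in the parental line MC1R(20). The control is of the tet-off kind, so that doxycycline (Dox) keeps the transgene off and its removal turns it on. The cells were male mouse ES cells of the strain the labels give as 126S6/SvEvTac, at passage 25, grown with LIF in medium that held puromycin at 1.5 ug/ml. The culture with the transgene off had Dox at 0.2 ug/ml, and the culture with the transgene on had it washed out. Both were harvested 48 h after the final wash. Both cultures carry the transgene and went through the same medium changes. The line is a single clone, and each culture is 3 wells of which 2 were hybridised, so that a difference between the cultures is a difference within that clone and p-values measure the spread between wells and arrays. Each of the other 6 lines, which carry Tcl1, Etv5, Jarid2, Jmjd2c, Ctbp2 or Mettl5 in the same system, has 2 arrays with Dox and 2 without.

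Tbx3 is a T-box transcription factor that can repress as well as activate its targets. In mouse ES cells it belongs to the factors that hold the undifferentiated state downstream of LIF signalling, forced Tbx3 can maintain self-renewal when LIF is removed, and Tbx3 also takes part in the step towards extra-embryonic endoderm. The comparison of transgene on with transgene off asks which transcripts respond to added Tbx3 while LIF is present.

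Each array compared RNA of one well, labelled with Cy3, with one common reference labelled with Cy5 on every array, made of 2 parts RNA pooled from mouse cell lines to 1 part RNA of ES cells. A log ratio below is log2 of the Cy3 signal over the Cy5 signal, and a change is the mean log ratio without Dox minus the mean with Dox, so that a change of 1 is a doubling. Of 42006 probes, 26441 had a Cy3 signal well above background in both replicates of 1 or both Tbx3 cultures and were tested, and 25466 met that in both cultures. The number of probes above background in Cy3 lay between 26381 and 27384 on the 4 arrays. Without Dox replicate 1 was hybridised on another slide than the other 3 Tbx3 arrays, so that a difference between the cultures is also given within the slide that holds 3.

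The 4 arrays did not group by culture. Across the 26441 probes, the highest correlation of log ratios was between replicate 1 with Dox and replicate 2 without Dox, which share a slide (Pearson's r = 0.981). The next was between both arrays numbered 2, also on that slide (0.974). The 2 arrays without Dox had r = 0.971, and the 2 arrays with Dox had r = 0.966. In the other 6 lines the 2 arrays of a culture had r between 0.979 and 0.993. These correlations run across probes, which are no independent replicates, and describe these arrays only.

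The probes carry no gene names. All 42006 names repeat the probe's identifier, so a gene was read from a probe's 60 bases where they run into the first bases of a RefSeq transcript (GRCm38.p6). This identified 127 genes, none of them Tbx3, so the level of the transgene itself was not measured here, and of the 476 genes on 25 lists of ES cell markers, lineage markers and pathways it identified 1, the heat shock gene Hspa1a, whose probe was not well above background. The labelled cell type could therefore not be checked by its markers. Beside the 127, the reverse complement of 16 probes matched a transcript start, and 6 probes matched several genes and were not named. A gene name below is thus a sequence match. The probes below are given by identifier. For those on which the first comparison turns, the last 30 of the 60 bases are printed 5′ to 3′ to show what was measured. Capitals mark the polyadenylation signal letters AATAAA or ATTAAA, searched on the printed strand only; 6.93% of all probes hold the first and 3.19% the second, and a match is a description of the letters.

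Z00021597-1: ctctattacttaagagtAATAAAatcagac
Z00000336-1: tgttggctttAATAAAgggcctctctgaga
Z00054048-1: agcacccagATTAAAtccttagcaatcaga
Z00074667-1: ccgatgccagctggactagtttaaacaaaa

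In the comparison of transgene on with transgene off over all 4 arrays, no probe passed. With limma fitted over all 28 arrays, each line with its own spread, 0 of 26441 probes (0%) had an adjusted p under 0.05, and 1651 (6.24%) had an unadjusted p under 0.05. The cultures did not overlap at 8180 probes (30.9%), 3829 of them higher and 4351 lower without Dox. Of these, 94 differed by more than 1 on the log2 scale (0.356%), and 6 by more than 2 (0.0227%). Among the 6, Z00072898-1, Z00025285-1 and Z00040042-1 had no Cy3 signal well above background with Dox. Z00073999-1 and Z00058717-1 changed by 0.61 and -0.71 once without Dox replicate 2 was left out. At Z00032477-1 the Cy3 signal was 97.5 and 102 with Dox and 117 and 119 without. Its Cy5 reference was 15.7 and 25.6 with Dox against 3.88 and 6.38. The sizes of these 6 changes are thus not read. The 4 probes printed above had the smallest p values among probes that did not overlap and changed the same way within the slide, 2 in each direction.

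Z00021597-1 had the lowest adjusted p of all probes tested. Its log ratios were -0.85 and -0.42 with Dox and -2.01 and -2.29 without. The Cy3 signal was 223 and 264 with Dox and 86.5 and 68.6 without, while the Cy5 reference was 403 and 353 with Dox and 349 and 334 without. Both arrays without Dox are thus low, and the cultures do not overlap in the sample channel. The change was -1.51 (SE 0.26, n = 2 per culture), 2.85-fold, with a limma adjusted p of 0.259, and within the slide it was -1.65 (adjusted p = 0.432). With normexp and loess it was -0.68, and with the Cy3 channel alone -1.55 (adjusted p = 0.000636). On the 24 arrays of the other lines the log ratio ran from -0.94 to 1.42, so both Tbx3 arrays without Dox lie below every other array of the series.

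Z00000336-1 had log ratios of -1.32 and -1.05 with Dox and -1.99 and -1.96 without, a change of -0.79 (SE 0.16, adjusted p = 0.479). Its values without Dox fall among those of the other lines, which ran from -3.14 to -1.33, and it is the culture with Dox that is higher than all of them. Z00054048-1 had log ratios of 0.46 and 0.51 with Dox and 1.03 and 0.83 without, a change of 0.44 (SE 0.090, adjusted p = 0.479). Its Cy3 signal hardly separated the cultures, with 18306 and 17920 with Dox and 19179 and 17937 without, and the Cy5 reference was lower without Dox, at 9366 and 10094 against 13303 and 12551. Z00074667-1 had log ratios of 0.88 and 0.80 with Dox and 1.40 and 1.22 without, a change of 0.47 (SE 0.095, adjusted p = 0.479), with Cy3 signals of 50670 and 46565 against 60625 and 53834. All 4 probes are separated by culture on these arrays, and none of the 4 passed.

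**Figure D1:**
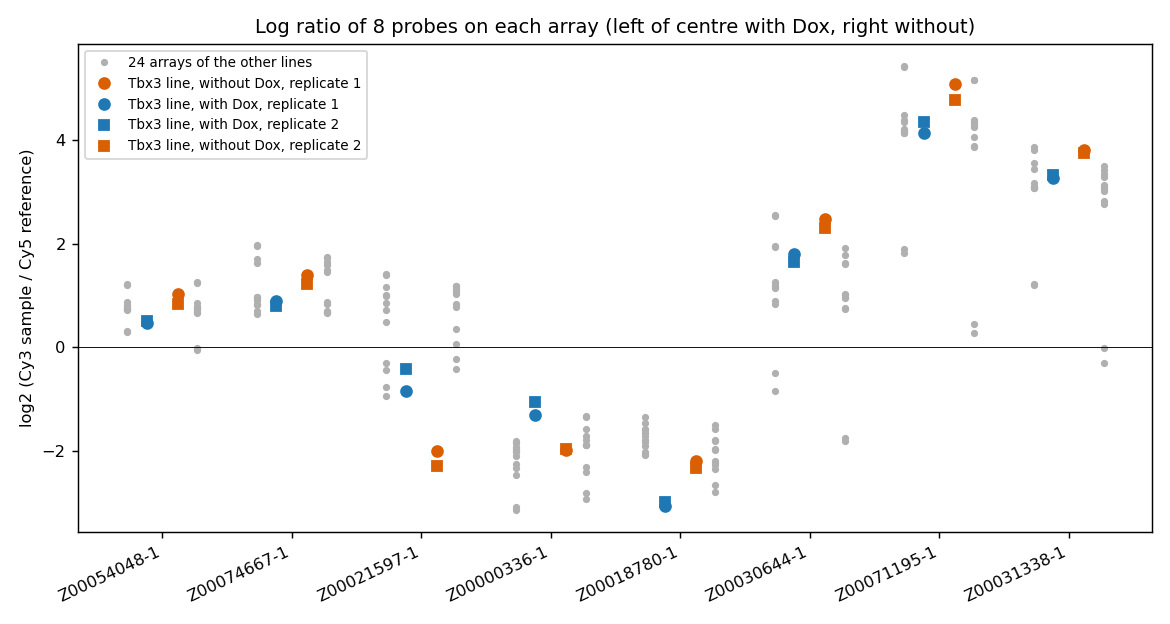
Log2 ratio of sample to reference (y axis) of 8 probes (x axis) on each array; blue is with Dox and orange without Dox in the Tbx3 line, circles are replicate 1 and squares replicate 2, and grey points are the 24 arrays of the other lines, left of centre with Dox and right without. At Z00021597-1 the 2 Tbx3 arrays without Dox (-2.01 and -2.29) lie below all others, and at Z00018780-1 the 2 Tbx3 arrays with Dox (-3.07 and -2.99) do.

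The number of probes that passed over all 4 arrays depended on the arrays and on the spread assumed. Leaving out an array leaves 1 array in a culture. Without replicate 2 without Dox, the remaining array without Dox lies on another slide than both arrays with Dox. Culture and slide then cannot be told apart, so that count is not read as a response to Tbx3. Leaving out replicate 1 without Dox gave 3 probes, leaving out replicate 2 without Dox gave 652, leaving out replicate 1 with Dox gave 0 and leaving out replicate 2 with Dox gave 6. A spread shared by all lines gave 2752, 1243 higher and 1509 lower. In the authors' value table, 834 probes were higher and 787 lower of 16539 that could be tested. At some probes the change there equals the change with 1 array left out. At H4c3, for example, both it and the change without replicate 2 without Dox were 1.475. This count thus does not rest on all 4 arrays at each probe.

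The response of the Tbx3 line differed from that of the other lines at 16 probes (0.0605% of 26441). Here the test is of the difference itself, the Tbx3 change minus the mean change of the other 6 lines, by limma with an adjusted p under 0.05. The Tbx3 change was relatively higher at 7 probes (0.0265%) and relatively lower at 9 (0.034%), by 0.464 to 1.72 on the log2 scale. The adjusted p lay between 0.0136 and 0.0452. At all 16 the Tbx3 change had the opposite sign to the mean change of the other lines, beside 47.3% of all probes, and the 2 Tbx3 cultures did not overlap, beside 30.9%. The test chose the probes for a large difference between these changes, so nothing is read from either count. The count was 2 without the array without Dox replicate 1, 897 without the array without Dox replicate 2, 0 without with Dox replicate 1 and 6 without with Dox replicate 2. As above, culture and slide cannot be told apart in the Tbx3 line without replicate 2 without Dox. The count was 94 with a replicate block, 83 with slide as a random block, and 0 when the variance was given no trend with signal. In Z00021597-1 and Z00000336-1, described above, the differences were -1.72 (SE 0.26, adjusted p = 0.0136) and -1.05 (SE 0.16, adjusted p = 0.0150), and in Z00054048-1 it was 0.51 (SE 0.091, adjusted p = 0.0409).

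Of the 7 probes with a relatively higher Tbx3 change, 5 fell without Dox in 3 or more of the other lines, where 1.74% of all probes passed in the Jarid2 line, 2.61% in the Mettl5 line, 3.07% in the Jmjd2c line, 5.82% in the Tcl1 line, 14.4% in the Ctbp2 line and 24.1% in the Etv5 line. These shares count passes in either direction, for each line by itself. They are thus no base share for falls in 3 or more lines. The test that chose the 7 probes used the changes of these same lines. Nothing is therefore read from the count of 5. The same holds for the passes in other lines at the probes with a relatively lower Tbx3 change. The 5 probes and those named below were chosen after their values were seen. Z00054860-1 had log ratios of -0.24 and -0.30 with Dox and 0.11 and 0.0075 without, a change of 0.32, and fell in 5 of the other lines. Z00018780-1 had log ratios of -3.07 and -2.99 with Dox and -2.20 and -2.34 without in the Tbx3 line, a change of 0.76. In the other lines it passed as a fall in 5 of 6, with changes from -0.66 in the Tcl1 line to -0.29 in the Mettl5 line, and 0.06 in the Jarid2 line, where it did not pass. Both Tbx3 arrays with Dox were below all arrays of the other lines, whose lowest was -2.79, while both arrays without Dox fell within their range. Z00030644-1 had log ratios of 1.79 and 1.64 with Dox and 2.47 and 2.30 without, a change of 0.67, where 4 of the other lines fell, by 1.11 on the log2 scale in the Tcl1 line and by 0.69 in the Etv5 line. Z00031338-1, among the brighter probes with Cy3 signals of 44978 and 48887 with Dox and 60741 and 60401 without, had a change of 0.48 against -1.38 in the Tcl1 line and -0.37 in the Etv5 line. Z00071195-1 had log ratios of 4.15 and 4.35 with Dox and 5.09 and 4.79 without, a change of 0.69 (0.46 with Cy3 alone) against -1.49 in the Tcl1 line. At each of these 5 probes both Tbx3 arrays without Dox are above both arrays with Dox.

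A pair of the probes with a relatively lower Tbx3 change overlap in sequence. The first 23 bases of Z00075229-1 are the last 23 of Z00006752-1, printed here because the 2 probes are thereby neighbours and not independent of each other; their other bases are not shared.

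Shared stretch: aaccagaagagaattggaacaag

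Z00075229-1 had log ratios of -0.29 and -0.15 with Dox and -0.58 and -0.57 without, a change of -0.36 (SE 0.089). Z00006752-1 had -0.12 and -0.16 with Dox and -0.46 and -0.39 without, a change of -0.28 (SE 0.082). Both are lower without Dox in the Tbx3 line, without overlap. In the other lines the first passed as a rise in 4 and the second in 5, with changes up to 0.50 and 0.37 in the Etv5 line. The differences from the mean of the other lines were -0.61 (adjusted p = 0.0136) and -0.46 (adjusted p = 0.0409). Z00062714-1 had the widest range across lines: it rose by 1.72 in the Ctbp2 line and by 0.86 in the Etv5 line and fell by 0.60 in the Tcl1 line, beside log ratios of 0.39 and 0.52 with Dox and 0.33 and 0.25 without in the Tbx3 line, a change of -0.17. Z00074398-1 had log ratios of 0.49 and 0.71 with Dox and 0.15 and 0.23 without, a change of -0.41, and rose by 0.57 in the Etv5 line and 0.55 in the Ctbp2 line. Z00060208-1 had log ratios of -0.44 and -0.37 with Dox and -1.02 and -0.75 without, a change of -0.48 (-0.24 with Cy3 alone), and its Tbx3 values all lie above the 24 arrays of the other lines, which ran from -2.03 to -1.05.

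**Figure D2:**
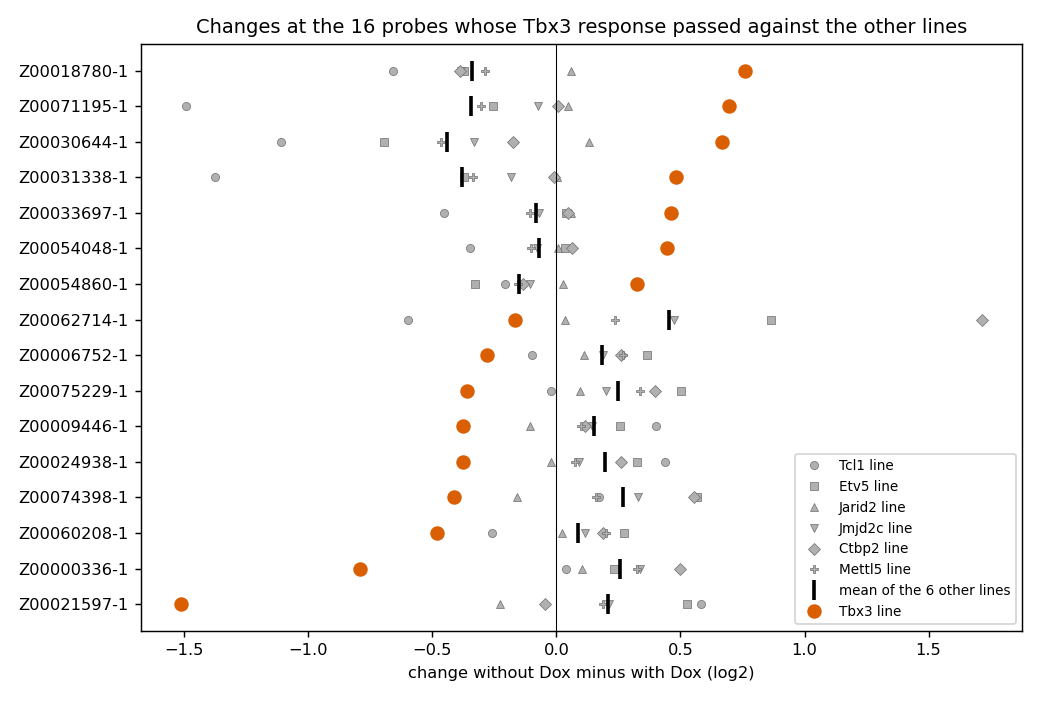
Change without Dox minus with Dox (x axis, log2) at the 16 probes (y axis) whose Tbx3 response differed from the mean of the other lines; orange is the Tbx3 line, grey marks are the 6 other lines and the black tick is their mean. The Tbx3 change lies on the other side of 0 from the black tick at all 16 probes.

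A further set of probes was chosen by the direction of change in the other 6 lines, with the Tbx3 arrays entering only through the filter on signal. In the 6 other lines together, 57 of the tested probes were higher without Dox in every line and 53 were lower in every line, without overlap between the 2 cultures of any line. Over all probes the cultures did not overlap at 45% in the Tcl1 line, 61.3% in the Etv5 line, 46.4% in the Jarid2 line, 44.6% in the Jmjd2c line, 54.5% in the Ctbp2 line and 47% in the Mettl5 line. In the Tbx3 line, 47 of the 57 were lower and 10 were higher, with a median change of -0.21. Of the 53, 41 were higher and 12 lower, with a median change of 0.14. The median change of all tested probes was -0.012. In all, 88 of the 110 (80%) moved against the other lines, whereas 47.3% of all 26441 probes had a Tbx3 change opposite in sign to the mean change of the other lines. None of the 110 passed in the Tbx3 line over all 4 arrays or in the test against the other lines.

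Only the slide that holds 3 of the Tbx3 arrays has both cultures of that line. Without Dox replicate 1, on the other slide, has no Tbx3 array with Dox beside it. For that array culture and slide cannot be told apart. Taking each probe's log ratio minus its mean over the 4 Tbx3 arrays, the median over the 57 probes was 0.060 and 0.17 on the arrays with Dox and -0.16 and -0.062 on those without. Over the 53 probes it was -0.055 and -0.099 with Dox and 0.12 and 0.011 without. Both arrays with Dox are on the side that arrays without Dox take in the other lines. Within the slide that holds 3 arrays, 46 of the 57 and 42 of the 53 moved against the other lines, with median changes of -0.13 and 0.075. Leaving out any single Tbx3 array left 86 to 88 of the 110 opposite, and within the slide, without with Dox replicate 2, it left 70. In the Cy5 reference channel the same sets had median changes of 0.0088 and -0.053, and with Cy3 alone 48 of the 57 and 35 of the 53 were opposite, with median changes of -0.17 and 0.038. The median of the 53 was thus smaller in the sample channel than in the log ratio.

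When each of the other lines was in turn left out of the choice, most left-out lines followed the other 5. Of the probes higher in 5 lines, 66 of 79 were higher in the Etv5 line, 85 of 99 in the Jmjd2c line, 63 of 69 in the Ctbp2 line, 63 of 68 in the Mettl5 line and 108 of 175 in the Tcl1 line. In the Jarid2 line it was 89 of 207. Of the probes lower in 5 lines, 67 of 80 were lower in the Etv5 line, 71 of 83 in the Jmjd2c line and 71 of 79 in the Mettl5 line. It was 66 of 89 in the Ctbp2 line, 90 of 158 in the Tcl1 line and 132 of 307 in the Jarid2 line. The arrays with Dox took positions 1 and 2 and those without Dox positions 3 and 4 on the slide in all 6 other lines, so in those lines culture and position cannot be told apart; the Tbx3 arrays with Dox took positions 2 and 3 and those without Dox positions 3 and 4.

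**Figure D3:**
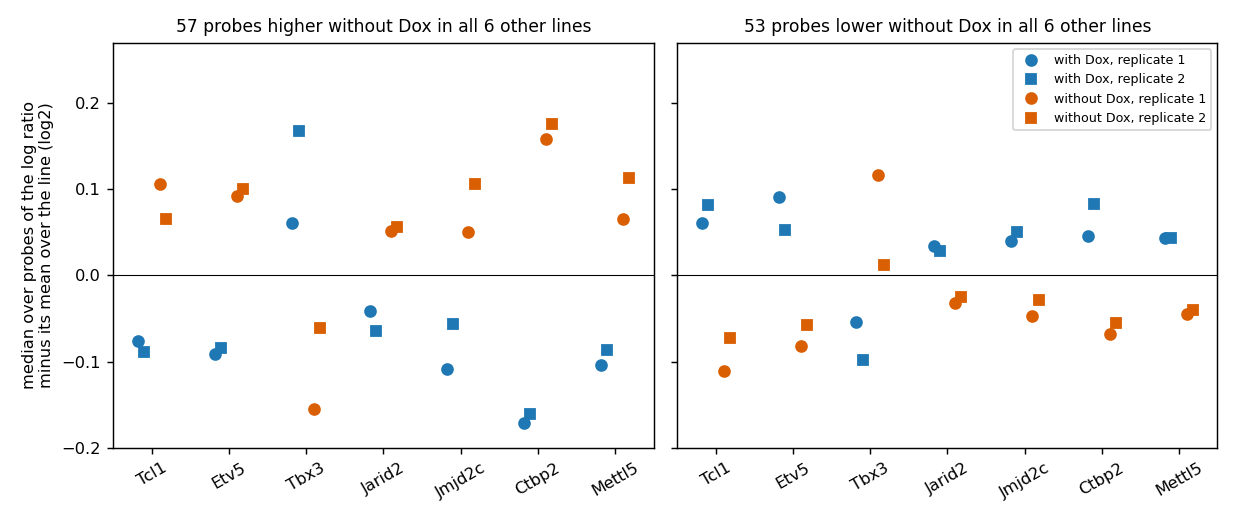
Median over the 57 probes that were higher without Dox in all 6 other lines (left) and the 53 that were lower (right) of the log ratio minus its mean over the 4 arrays of a line (y axis, log2), for each array of each line (x axis); blue is with Dox and orange without, circles replicate 1 and squares replicate 2. In the Tbx3 line the order of the cultures is turned in both panels, with 0.060 and 0.17 with Dox against -0.16 and -0.062 without on the left.

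A few probes had the same direction as the other lines. In all, 3 probes were higher without Dox in all 7 lines without overlap, and 3 were lower in all 7. These are 3 of the 57 and 3 of the 53. Over all tested probes the Tbx3 cultures did not overlap at 14.5% as rises and at 16.5% as falls, so nothing is read from these counts. At Z00072898-1 the Cy3 signal of the Tbx3 line was 5.45 and 5.48 with Dox, not well above background, and 77.1 and 61.0 without. It was at least 1.43-fold higher without Dox, measured against the lowest signal that counted as well above background, and the limma adjusted p was 0.573. The probe met the filter through the culture without Dox alone, so the direction of this bound follows from the filter. It is a description and no support for a change, and the same holds for the bounds given below. With a signal at background in one culture the log2 change itself is not a measurement; with normexp and loess, which compresses low signals, it was fitted at 0.51.

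Z00026897-1 had Cy3 signals of 30.9 and 20.2 with Dox, well above background on 1 of the 2 arrays, and 165 and 145 without, log ratios of 0.37 and 0.06 against 1.92 and 2.11, and a change of 1.80 (SE 0.51, adjusted p = 0.575; 0.79 with normexp and loess), beside 0.42 to 1.53 in the other lines. Z00040042-1 had a similar pattern in the Tbx3 line, with Cy3 signals of 5.44 and 5.51 with Dox, not well above background, and 49.2 and 33.2 without, at least 1.25-fold higher (adjusted p = 0.655). Its mean change was above 0 in each of the other lines. Z00072898-1, Z00026897-1 and Z00040042-1 all met the filter on signal only through the Tbx3 culture without Dox. Nothing is therefore read from their direction in the Tbx3 line or from its match with the other lines. The third probe that was higher in all 7 lines, Z00022951-1, had a change of 0.076 in the Tbx3 line. The 3 that were lower in all 7, Z00059177-1, Z00006017-1 and Z00014828-1, had changes of -0.33, -0.22 and -0.17 there.

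Z00025285-1 was chosen because both its arrays without Dox stand above the rest of the series. Its Cy3 signal was 26.8 and 9.62 with Dox, not well above background on either array, and 111 and 88.5 without, at least 1.42-fold higher. The log ratios were -5.46 and -6.77 with Dox and -3.04 and -3.69 without, with a bright Cy5 reference between 915 and 1178. Both arrays without Dox were above every other array of the series, the highest of which in the other lines was -4.63. It did not pass between the cultures (adjusted p = 0.628) or against the other lines (adjusted p = 0.163), and with normexp and loess the change was fitted at 0.57.

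At other probes it was the Tbx3 arrays with Dox, where the transgene is off, that stood apart from the series. Those arrays share a slide, whereas the Tbx3 arrays without Dox lie on different slides. In each of the other lines both cultures lie on the same slide. Culture and slide thus cannot be told apart in the Tbx3 counts that follow. Both arrays with Dox lay above all other 26 arrays of the series at 1444 probes and below them at 1358, against 277 and 218 for both arrays without Dox. In each of the other 6 lines it was the culture without Dox that had more such probes; in the Jarid2 line, for example, both arrays with Dox lay above at 531 and below at 324, and both arrays without Dox at 495 and 576. The gaps were small: they exceeded 0.25 on the log2 scale at 60 and 42 probes for the arrays with Dox and at 16 and 9 for those without. Z00057326-1, chosen for its gap, had log ratios of 1.20 and 1.59 with Dox and 0.51 and 0.59 without, while the other lines ran from -0.48 to 0.46. Z00022565-1 had -3.40 and -3.23 with Dox and -2.39 and -2.22 without, while the other lines ran from -2.17 to -0.97. All 4 Tbx3 arrays lie outside the other lines at both probes, with the culture with Dox farther out, and the adjusted p of the change was 0.962 and 0.926 (changes with normexp and loess -0.40 and 0.22). At Z00022565-1 the Cy3 signal with Dox, 21.4 and 21.3, was not well above background, and it was at least 1.05-fold higher without. At Z00076971-1 all 4 arrays lie below the other lines and the culture without Dox is farther out, with -0.19 and -0.24 against 0.31 and 0.27 with Dox and 0.59 to 1.65 in the other lines.

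The slide moved with this. Taken singly, with Dox replicates 1 and 2 lay outside the range of the 24 arrays of the other lines at 42.8% and 38.8% of probes, and without Dox replicate 2, on the same slide, at 36.5%. Without Dox replicate 1, on another slide, did so at 23.3%. The arrays of the other lines did so at 680 to 7478 of 26441 probes, with a median of 2814. The part of the slide in these values was not tested.

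**Figure D4:**
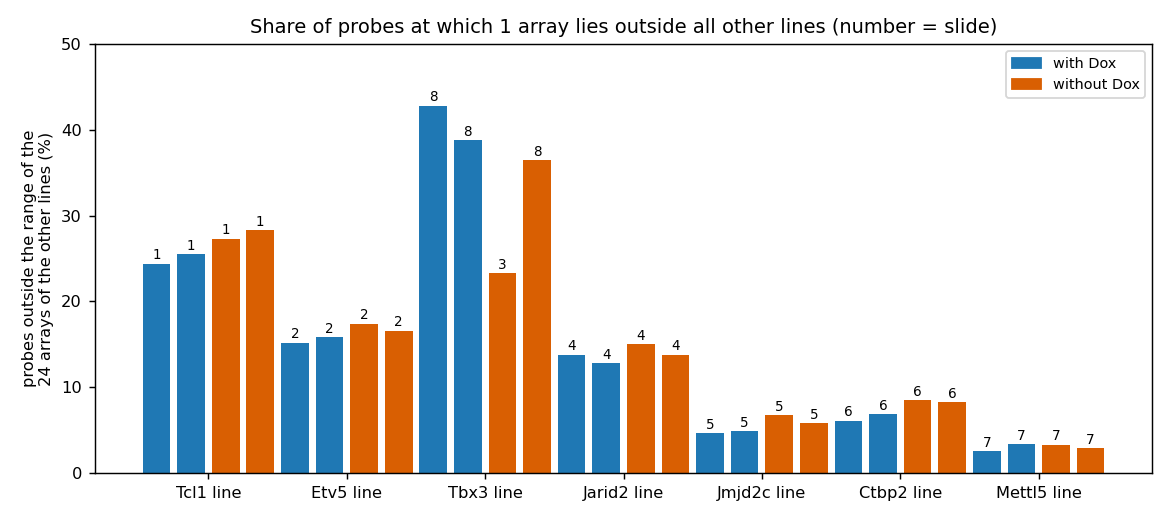
Percent of the 26441 probes at which an array lies outside the range of the 24 arrays of the other 6 lines (y axis), for each array of each line (x axis); blue is with Dox, orange without, and the number above a bar is the slide. The 3 Tbx3 arrays on slide 8 reach 42.8%, 38.8% and 36.5%, and the Tbx3 array on slide 3 reaches 23.3%.

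The probes whose gene could be read gave no call either. Of the 127, 50 were well above background and tested, with changes from -0.612 to 0.772 and a median of 0.0845. No probe passed and 0 had an unadjusted p under 0.05. The cultures did not overlap at 14 of them, 8 higher and 6 lower without Dox, which is 28% beside 30.9% of all probes. H3f3a, which encodes the histone variant H3.3, had log ratios of 0.80 and 1.32 with Dox and 0.64 and 0.65 without, and Cy3 signals of 420 and 602 against 337 and 303. Its change was -0.42 (SE 0.25, adjusted p = 0.911), between -0.68 without replicate 1 with Dox and -0.16 without replicate 2 with Dox, read at chr1:180813556-180813601 on the minus strand, within the first bases of its transcript. Gstp1, a glutathione S-transferase of detoxification, had log ratios of -1.20 and -1.15 with Dox and -1.38 and -1.40 without, at Cy3 signals of 2751 and 2669 against 2317 and 1877, a change of -0.21 (SE 0.14, adjusted p = 0.944; chr19:4037863-4037911, minus strand). Both are lower without Dox without overlap, and neither passed.

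The histone H4 genes show how a single array can set a change. H4c8 had log ratios of -0.05 and -0.17 with Dox and -0.73 and -0.40 without, a change of -0.46 (SE 0.34, adjusted p = 0.992; -0.22 with normexp and loess and -0.29 within the slide; chr13:23531068-23531093, plus strand). H4c3 had -0.903 and -0.765 with Dox and 0.641 and -0.764 without, so that the arrays numbered 2 are all but equal although the cultures count as not overlapping. The change of 0.77 (SE 0.59, adjusted p = 1) rests on without Dox replicate 1, where the Cy5 signal was 33.7 against 69.9 to 87.2 on the other 3 arrays. The change within the slide was 0.070, with Cy3 alone 0.060 and with normexp and loess 0.25. Its probe is printed with the 38 bases that match the first bases of the H4c3 transcript, in its coding part, (chr13:23698409-23698446, minus strand) in capitals; histone H4 genes are near-identical copies, so the signal may come from several of them.

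H4c3 probe: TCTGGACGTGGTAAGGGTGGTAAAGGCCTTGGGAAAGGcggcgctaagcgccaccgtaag

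The other probes among the 14 were those of Pla2g2d, a secreted phospholipase, Olfr559, an olfactory receptor, Xlr3b, Zfp595, Gm32950, 6430550D23Rik and Arhgap27os3, all higher without Dox, and of Madcam1, a vascular adhesion molecule, Col28a1, a collagen, and Gm33611, all lower. Their changes ran from -0.32 in Madcam1 to 0.48 in Arhgap27os3, and each had an adjusted p of 1. With normexp and loess the change was 0.19 in Arhgap27os3 and -0.059 in Madcam1. With Cy3 alone it was 0.37 in Col28a1 and -0.012 in Zfp595, the opposite sign to the log ratio, and in Olfr559 it was -0.048 with normexp and loess.

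Within the slide that holds 3 Tbx3 arrays, 3 probes passed of 26441 (0.0113%), 1 higher (0.00378%) and 2 lower (0.00756%), and 153 had an unadjusted p under 0.05. All 3 rest on without Dox replicate 2, the only array without Dox on that slide, which is assumed to vary like the other arrays of its line. Z00073999-1 had log ratios of -1.84 and -1.82 with Dox, -1.23 in without Dox replicate 1 and 2.02 in without Dox replicate 2, where the Cy3 signal was 26374 against 964, 890 and 1263 on the others and the Cy5 signal was 6492 against 3448, 3151 and 2954. Z00058717-1 had 0.86 and 0.32 with Dox, -0.12 and -4.03 without, and Z00026234-1 had -4.09 and -3.74 with Dox, -4.11 and -6.31 without. With normexp and loess the changes over all 4 arrays at Z00058717-1 and Z00026234-1 were -0.62 and -0.071. There the Cy3 signal of without Dox replicate 2, 5.83 and 6.06, was not well above background. At each of the 3 probes the other array without Dox lies closer to the arrays with Dox than to its own replicate, and the changes over all 4 arrays did not pass (adjusted p = 0.575, 0.575 and 0.655). In the authors' value table the changes at Z00073999-1 and Z00026234-1 were 0.61 and -0.19. Without replicate 2 without Dox they were also 0.61 and -0.19.

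With the Cy3 channel alone, 3 of 26441 probes passed over all 4 arrays (0.0113%), Z00021597-1 and Z00072898-1 above and Z00061353-1, of which the latter 2 were not well above background in one culture. At the last, the Cy3 signal was 164 and 178 with Dox and 4.61 and 5.78 without, and the Cy5 signal of the common reference was 134 and 139 with Dox and 4.00 and 6.46 without. The reference moved with the sample there, and the log ratios of 0.30 and 0.35 against 0.20 and -0.16 gave an adjusted p of 1.

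The Tbx3 arrays spread more than those of any other line, which bears on each result above. Over the tested probes, the SD of replicate 1 minus replicate 2 was 0.359 with Dox and 0.334 without on the log2 scale, against 0.171 to 0.278 in the cultures of the other lines. The 2 cultures differed in where the spread lay. With Dox it lay in the sample channel, with an SD of 0.387 in Cy3 and 0.228 in Cy5, and without Dox it lay in the reference channel, with 0.268 in Cy3 and 0.359 in Cy5. The Cy5 value without Dox, whose 2 arrays are on different slides, is above the 0.157 to 0.260 of the other lines. The line's weight in the fit was 0.176, against 0.547 to 1.85 for the others. In the Cy5 reference, which holds the same RNA on all arrays, 0 of 26441 probes (0%) passed between the Tbx3 cultures by limma and 2009 had an unadjusted p under 0.05, a count above the 1651 of the log ratio.

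**Figure D5:**
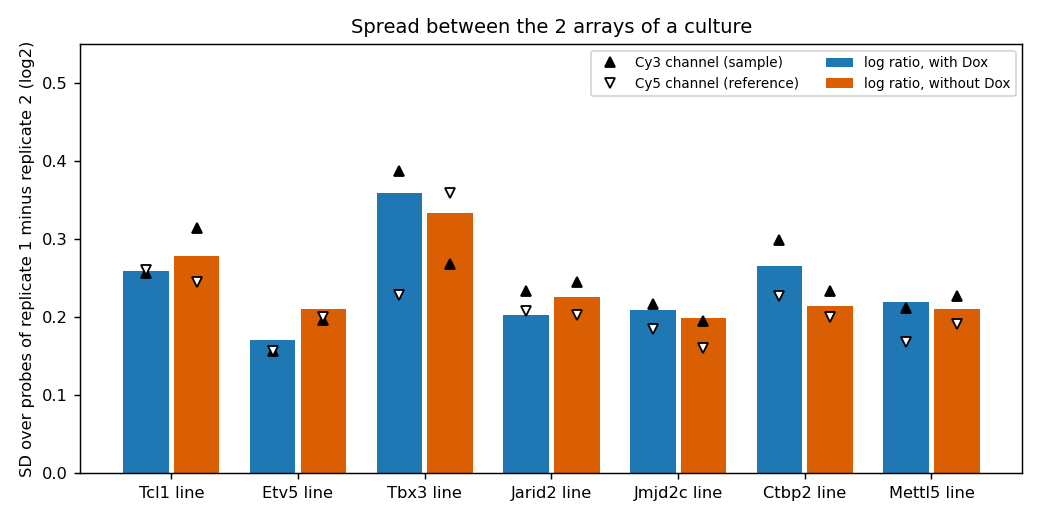
SD over the 26441 probes of replicate 1 minus replicate 2 (y axis, log2) for each culture of each line (x axis); bars are the log ratio, filled triangles the Cy3 sample channel and open triangles the Cy5 reference channel. The Tbx3 bars (0.359 and 0.334) are the highest, with the Cy3 triangle highest with Dox (0.387) and the Cy5 triangle highest without Dox (0.359).

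The change also repeated little from pair to pair. The difference between the cultures in replicates 1 had r = 0.088 with that of replicates 2 across the 26441 probes, the lowest of the 7 lines, which otherwise ran from 0.099 in the Jarid2 line to 0.383 in the Etv5 line. Equal numbers are not known to mark a pairing. With the Tbx3 arrays paired crosswise r was -0.046, which was not computed for the other lines. In the Tbx3 line the arrays numbered 1 also lie on different slides. The spread of the log ratio fell with signal, from 0.469 with Dox and 0.471 without in the 6611 probes of lowest signal to 0.285 and 0.255 in the 6610 of highest signal, while the share of probes whose cultures did not overlap went from 33.0% to 28.6%. Probes that share at least 25 bases, 939 measured pairs, had Tbx3 changes that correlated at r = 0.610, beside 0.101 to 0.878 in the other lines. The Tbx3 change correlated across probes with the change in Cy3 at r = 0.565 and with that in Cy5 at r = -0.430.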

How the data were processed

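RNA of 28 wells, 2 of each culture, was hybridised on 2-colour Agilent arrays with probes of 60 bases, the sample in Cy3 and the common reference in Cy5. Per the file headers, the deposited intensity values come from Agilent Feature Extraction 9.5.1.1 (protocol GE2-v5_95), background-subtracted and dye-normalized. The authors' deposited value table behaves as log10 values adjusted to the reference (medians of the Tbx3 arrays 3.09, 3.09, 3.08 and 3.09); its normalization and centring are not given in the sources used here. It was used as an alternative for the 16539 tested probes it shares.

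Log2 of the processed Cy3 over Cy5 signal was taken, control spots left out and spots of a probe averaged. Group means were fitted over 28 arrays with limma 3.58.1 in R 4.3.3, with array weights per line and a variance trend on signal, two-sided, with Benjamini-Hochberg adjustment and a threshold of 0.05. A probe was tested where Cy3 stood well above background in both replicates of either Tbx3 culture. The fit was tested on simulated data without any difference between slides. Over all 4 arrays it recovered 58 of 100 probes changed by 1 on the log2 scale and 87 of 100 changed by 2. It made 3 false calls among the other probes. No saturated spots were found. The number of arrays limits the precision.

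The members and lists were chosen with earlier results of these data known. Named by rule were the probes with a gene, up to 12 in each direction, and 2 probes without a gene in each direction, by smallest p among those that did not overlap and changed the same way within the slide. The rule's Tbx3 probes and gene-list members could not be matched. The planned match by translated protein was replaced by a match of at least 25 bases to RefSeq transcript starts (50 bases of each), since protein sequences were not used here. The labels do not say that equal replicate numbers mark shared wells. Alternatives were other background correction, centring, channels, filters, weights, blocks, the authors' table and leaving out each array.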

Additional observations from a re-analysis of the deposited data

Results flagged for a closer look

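The change of the Tbx3 line differed from the mean change of the other 6 lines at 16 probes, by limma's test of the difference itself with an adjusted p under 0.05. The Tbx3 change minus that mean, on the log2 scale, was 0.51 at Z00054048-1, 1.04 at Z00071195-1, 0.54 at Z00033697-1, 1.1 at Z00018780-1, 0.48 at Z00054860-1, 1.11 at Z00030644-1 and 0.86 at Z00031338-1. It was -1.72 at Z00021597-1, -1.05 at Z00000336-1, -0.57 at Z00024938-1, -0.53 at Z00009446-1, -0.62 at Z00062714-1, -0.57 at Z00060208-1, -0.61 at Z00075229-1, -0.68 at Z00074398-1 and -0.46 at Z00006752-1. None of the 16 passed between the Tbx3 cultures alone. Without replicate 2 without Dox, culture and slide cannot be told apart in the Tbx3 line. The count was 0 without the array with Dox replicate 1 and 897 without the array without Dox replicate 2.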

How the results depend on the processing

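Over all 4 arrays, where 0 probes passed, the count was 3 with Cy3 alone, 1621 in the authors' value table, 2752 with no array weights, 1 with no filter, and 0 to 652 when each array was left out. Within the slide, where 3 passed, it was 5 with Cy3 alone, 727 in the authors' table, 256 with no array weights, 41 with the Tbx3 arrays alone, 1 with a filter on both channels, and 3256 to 5621 with either array with Dox left out, when 1 array stands against 1 and each is assumed to vary like the other lines' arrays. Against the other lines, where 16 passed, it was 33 with normexp and loess, 10 with median centring, 107 with Cy3 alone, 2081 in the authors' table, 3827 with no array weights, 162 with no filter, 8 with a filter on both channels, 0 with no intensity trend, 83 with slide as a random block, 94 with the replicate block, and 0 to 897 when each array was left out. In the Cy5 reference, where 0 passed, it was 2197 with no array weights, 1 with no filter, 1 with no intensity trend, and 0 to 10214 when each array was left out. The cause was not tested. Over all 4 arrays, against the other lines and in Cy5, the highest leave-out count came without replicate 2 without Dox. There culture and slide cannot be told apart. With the replicate block, 0 probes passed over all 4 arrays and 0 in Cy5; same-numbered arrays had deviations that correlated at r = 0.128 over only 2 pairs, so the numbers were not taken as a pairing. At the probes that moved one way in all other lines, the number opposite in the Tbx3 line was 88 of 110, and over the alternatives over all 4 arrays it lay between 83 of 110 (75.5%) with Cy3 alone and 90 of 110 (81.8%) with median centring, with 63 of 81 (77.8%) in the authors' table.

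None of the following changes passed, and each turned sign. With Cy3 alone they were -0.012 at the Zfp595 probe, 0.37 at Col28a1, 0.44 at Z00046116-1, 0.013 at Z00006017-1 and -0.044 at Z00064197-1. With normexp and loess they were -0.048 at Olfr559, 0.037 at Z00061353-1, -0.019 at Z00064197-1 and 0.018 at Z00063781-1. At Z00063781-1 they were 0.013 with median centring, 0.037 with slide as a random block and -0.20 to 0.20 with each array left out, and at Z00064197-1 -0.16 to 0.28 with each array left out. The spread between replicates was widest at the probes of lowest signal, and there normexp and loess gave smaller changes at many of the probes named.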
